A study of Saccharomyces cerevisiae with 12 samples.

Results

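The genes described here encode the 33 subunits of the yeast proteasome, its transcription activator Rpn4, the core assembly factor Ump1 and the alternative cap protein Blm10. The list was drawn up by gene name, with earlier results of these data known. All 36 were measured, each by 1 probe set, among the 5449 genes that the arrays measured by a named probe set. Of the subunits, 14 belong to the core particle (7 in the alpha ring and 7 in the beta ring), 10 to the base of the regulatory cap and 9 to its lid.

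Saccharomyces cerevisiae cultures in YPD, a rich medium, were at mid-log phase and 25 °C when a stress agent was added at time 0. One course received 0.3 mM hydrogen peroxide (H2O2), an oxidant, and the other 0.1% methyl methanesulfonate (MMS), which methylates DNA. RNA was hybridised to 1 array at each of 0, 30, 60, 100, 140 and 180 min of each course, so the 12 arrays held 1 array per time point and agent. The strain is not given in the sources used here. For the tests, the 2 arrays of 0 min formed the time 0 group, those of 30 and 60 min the early window of a course (n = 2), and those of 100, 140 and 180 min its late window (n = 3). A gene was called higher or lower when its p from limma, a linear model that pools the spread over genes, was under 0.05 after Benjamini-Hochberg adjustment across the 5449 genes. Calls over all genes were counted for this model and for median centring only. Subunit counts given without an array or under other settings thus have no share of all genes beside them. Values are log2 signals, on which a difference of 1 is a doubling, and each change is given with the model's SE. Time points stood in for replicates. SEs and p-values thus measure the spread between the time points of a window and between the 2 arrays of 0 min. They do not measure that between repeat cultures of a time point and agent. No untreated course was analysed here, so time after addition and agent cannot be told apart within a course, nor can agent and array batch between courses. At 0 min the 33 subunits differed between the courses by a median of -0.0032 (range -0.12 to 0.07), against an SD of 0.15 over all genes.

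The proteasome degrades proteins marked with ubiquitin. Proteolytic sites of the beta ring lie inside a barrel that the alpha rings close. The base, with its ring of ATPases, unfolds substrates and threads them in, and the lid removes their ubiquitin. In yeast, Rpn4 binds an element shared by the promoters of most proteasome genes, and it is itself a short-lived substrate of the proteasome. The question that the courses address is how messenger RNA abundance changes under oxidative and DNA damage stress.

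The first array after 0 min was that of 30 min, so which gene moved first cannot be told. By then RPN4 had risen further than any subunit, UMP1 or BLM10 under both agents, and it then took opposite courses. In H2O2 its log2 signal was 10.69, 11.58, 10.99, 10.29, 10.28 and 10.21 at 0, 30, 60, 100, 140 and 180 min. Both early arrays lay above the 0 min arrays and all 3 late arrays below them. In MMS the signal was 10.69, 11.86, 11.70, 11.76, 12.03 and 12.05 at the same times, with all 5 arrays after 0 min above both 0 min arrays. RPN4 rose by 0.59 ± 0.18 in the early H2O2 window (limma adjusted p = 0.0283), where 33.7% of all genes were called and 14.7% were called higher. The call rested on the 30 min array: without it the change was 0.30 (limma adjusted p = 0.15), and the call was also lost without either 0 min array (0.59 and 0.60, limma adjusted p = 0.113 and 0.112). From the early to the late H2O2 window RPN4 fell by 1.02 (SE 0.16, limma adjusted p = 0.00823), and 4.75% of genes were called lower between these windows. Its late H2O2 level, -0.43 ± 0.16 from time 0, did not pass (limma adjusted p = 0.0975), though it did without either of the early H2O2 arrays (limma adjusted p = 0.0330 in both fits). Under MMS the rise was 1.09 ± 0.18 in the early window (limma adjusted p = 0.00353) and 1.25 ± 0.16 in the late window (limma adjusted p = 0.000109), which is 2.38-fold. The step between the MMS windows, 0.17 ± 0.16, did not pass (limma adjusted p = 0.413).

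**Figure D1:**
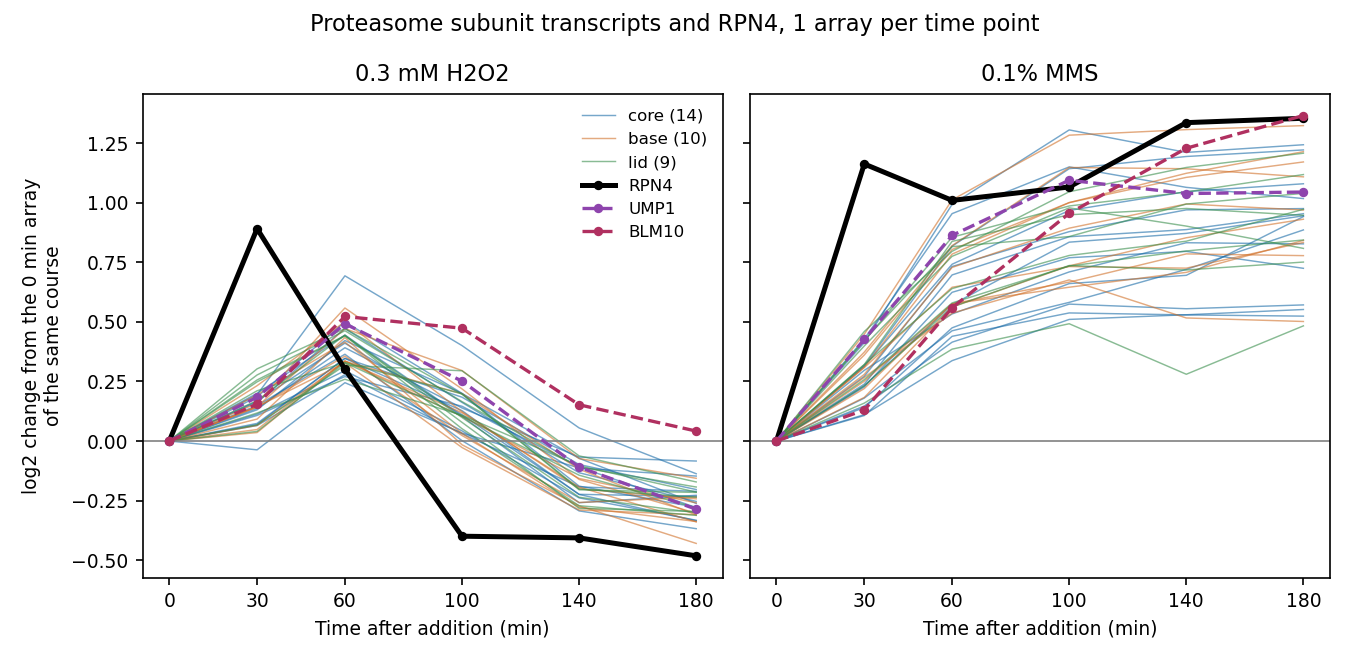
Log2 change of each gene from the 0 min array of its own course (vertical axis) against time in min, for H2O2 (left) and MMS (right), with 1 array per point and thus no error bars. In H2O2 RPN4 (black) was highest at 30 min and all 33 subunits (thin lines) at 60 min. In MMS RPN4 stood between 1.01 and 1.35 from 30 min on while the subunits climbed to a median of 0.94 at 180 min.

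The subunits under H2O2 went up by a small amount together and came back. Their median change from the 0 min array of the course was 0.14, 0.39, 0.12, -0.19 and -0.26 at 30, 60, 100, 140 and 180 min. Of the 5 arrays after 0 min, that of 60 min was the highest for all 33, as it was for 29.8% of all genes. That of 180 min was the lowest for 31, a count not made over all genes. In the early window 32 of the 33 had both arrays above both time 0 arrays, as had 33.5% of all genes. PUP3, a beta ring subunit, was the exception, with 12.14 at 30 min against 12.18 and 12.14 at 0 min. None of the 33 was called in the early window by limma. At an unadjusted p under 0.05 there were 4 of 33, beside 2466 of all 5449 genes. The median change was 0.28 (range 0.12 to 0.44) against -0.04 over all genes. One subunit was called without either early MMS array, since these arrays enter the common estimate of the spread. In the late window none was called either, where 15.4% of all genes were called. Nor had any subunit an unadjusted p under 0.05, beside 1834 of the 5449 genes. Only RPT4, a base ATPase, had all 3 late arrays below both time 0 arrays, which held for 39.6% of genes.

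PRE3, whose product carries one of the proteolytic sites of the core, moved furthest of the subunits under H2O2. Its log2 signal was 11.60, 11.80, 12.29, 12, 11.66 and 11.46 at 0, 30, 60, 100, 140 and 180 min. It was the 1 subunit that reached a 1.5-fold difference from the 0 min array at 60 min, with a log2 change of 0.69, while 18.1% of all genes did. Its early change of 0.44 ± 0.22 did not pass (limma adjusted p = 0.146). RPN12, a lid subunit, followed with 0.40 ± 0.17 (limma adjusted p = 0.0962), and RPN6, a lid scaffold that touches the core, with 0.38 ± 0.15 (limma adjusted p = 0.0755). PUP3 was at the other end of the range with 0.12 ± 0.13.

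The return from the early to the late H2O2 window had a median of -0.38 over the 33 subunits (range -0.53 to -0.17), against 0.02 over all genes. None was called by limma, where 9.07% of genes were called in either direction. An unadjusted p under 0.05 was found for 21 of the 33, beside 1525 of all 5449 genes. RPN3, a lid subunit, had the largest step of the 33, at -0.53 ± 0.15 (limma adjusted p = 0.0585). Without the 100 min H2O2 array, on which the subunits were still a median of 0.12 above 0 min, 12 were called, and 12 were also called without either early MMS array.

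Under MMS the subunits rose above time 0 and stayed there. Their median change from the 0 min array was 0.28, 0.65, 0.83, 0.87 and 0.94 at 30, 60, 100, 140 and 180 min. All 33 lay above that array at each of these times. Of all 5449 genes, 2596, 2849, 2921, 2910 and 2857 did, in the same order. Subunits at 1.5-fold or more numbered 19 of 33 at 60 min, and 28 of 33 at 100, 140 and 180 min. The shares of all genes that far up were 22.3%, 30.1%, 31.5% and 31.3% at these 4 times. In the early window all 33 subunits had both arrays above both time 0 arrays, as had 39.2% of genes, and in the late window all 33 again, as had 46% of genes.

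In the early MMS window 14 of the 33 subunits were called higher and none lower, against 18.7% of all genes called higher. The median change was 0.45 (range 0.22 to 0.77) and that of all genes 0.02. Those called were PRE2, PRE5, PRE8 and PUP1 of the core, RPT3, RPT4, RPN1 and RPN2 of the base, and RPN3, RPN5, RPN6, RPN9, RPN11 and RPN12 of the lid. This count turned on single arrays, in fits for which the calls over all genes were not counted. It was 29 without the 30 min MMS array and 0 without the 60 min MMS array or without either 0 min array. Without the 140 min array of either course it was 9, and with the time point as a block 8.

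In the late MMS window 32 of the 33 subunits were called higher and none lower, against 40.3% of all genes called higher and 34.6% called lower. The median change was 0.86 (range 0.36 to 1.34), and that of all genes 0.09. The core, the base and the lid had medians of 0.83, 0.86 and 0.86 and means of 0.85, 0.92 and 0.85, and all 14 core, all 10 base and 8 of 9 lid subunits were called. Without the ubiquitin receptors RPN10 and RPN13, which both lay below it, the base median was 0.99. No member was left out of the core or the lid for these medians. The classes were not tested against each other. Leaving out any 1 of the 12 arrays gave 32 or 33 called subunits.

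**Figure D2:**
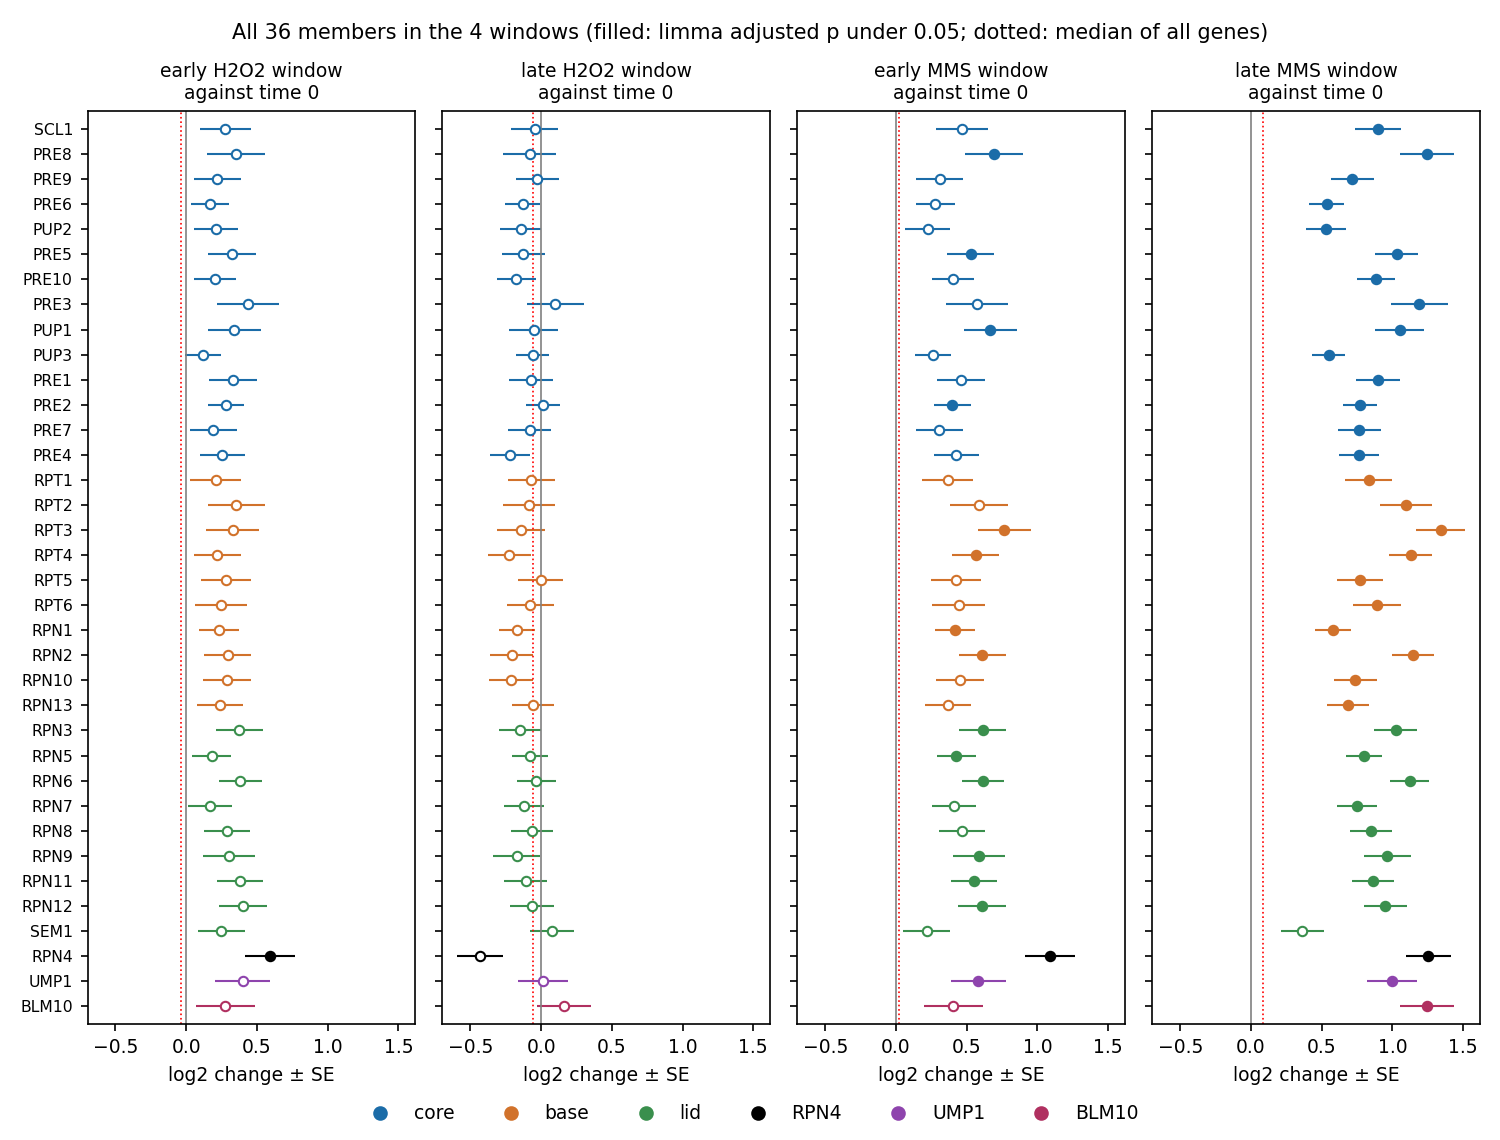
Log2 change from time 0 with the limma SE for all 36 genes in the early and late windows of each course. Filled points passed an adjusted p of 0.05 over all 5449 genes, and the dotted line marks the median of all genes. In the late MMS window every subunit except SEM1 is filled, and in both H2O2 windows no subunit is.

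Within the core, the alpha ring, which gates the barrel, had a mean late MMS change of 0.83 with a wide spread (SD 0.261 over 7 members). PRE8 rose by 1.24 ± 0.19 (limma adjusted p = 0.000244), with a log2 signal of 11.68, 12.09, 12.67, 12.98, 12.89 and 12.92 at 0, 30, 60, 100, 140 and 180 min of MMS. PUP2 and PRE6 were at the lower end, with rises of 0.53 ± 0.14 (limma adjusted p = 0.00718) and 0.54 ± 0.12 (limma adjusted p = 0.00278). PUP2 had 11.84, 11.95, 12.18, 12.35, 12.37 and 12.39 at these times, so all 5 later arrays lay above 0 min here too, by less. In the beta ring, with a mean of 0.86 (SD 0.213, 7 members), PRE3 rose by 1.19 ± 0.20 (limma adjusted p = 0.00043) and PUP3 by 0.55 ± 0.12 (limma adjusted p = 0.00171). The MMS signal of PRE3 was 11.61, 11.93, 12.43, 12.75, 12.81 and 12.83, and thus passed its H2O2 maximum of 12.29 by 60 min. PRE2 and PUP1, whose products carry the other proteolytic sites, rose by 0.77 ± 0.12 and 1.05 ± 0.17 (limma adjusted p = 0.000263 and 0.000385).

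The 6 base ATPases, the motor of the cap, rose by a mean of 1.01 (SD 0.217), and the other 4 base subunits by a mean of 0.79 (SD 0.247). No test was made of this difference. RPT3 had the largest late MMS change of the 33 subunits, at 1.34 ± 0.17 (limma adjusted p = 0.000103, 2.53-fold). Its log2 signal was 11.23, 11.67, 12.24, 12.51, 12.53 and 12.55 at 0, 30, 60, 100, 140 and 180 min of MMS, against 11.15, 11.39, 11.65, 11.28, 10.95 and 10.91 in H2O2. Every MMS array of RPT3 after 0 min lay above its highest H2O2 array, that of 60 min, at the closest by 11.67 against 11.65. From the 0 min array of its own course, RPT3 had changed by 0.45 at 30 min of MMS and 0.50 at 60 min of H2O2. RPT5 had the smallest change of the ATPases, 0.77 ± 0.16 (limma adjusted p = 0.00167). RPN2 and RPN1, the large scaffold subunits of the base, differed from each other, with rises of 1.15 ± 0.15 (limma adjusted p = 0.000121) and 0.58 ± 0.13 (limma adjusted p = 0.00215). RPN1 was highest at 100 min of MMS, with 11.89, 12.16, 12.43, 12.57, 12.41 and 12.39 over the course. RPN10 and RPN13, the ubiquitin receptors, rose by 0.74 ± 0.15 and 0.69 ± 0.15 (limma adjusted p = 0.00154 and 0.00185).

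In the lid RPN6 rose by 1.12 ± 0.14 (limma adjusted p = 8.7e-05), with 11.36, 11.82, 12.16, 12.41, 12.51 and 12.57 at 0, 30, 60, 100, 140 and 180 min of MMS. RPN11, the lid's deubiquitinase, rose by 0.86 ± 0.15 (limma adjusted p = 0.000535), and RPN7 by 0.75 ± 0.14 (limma adjusted p = 0.000884). SEM1, a small lid subunit that is also part of other complexes, was the 1 subunit not called, at 0.36 ± 0.15 (limma adjusted p = 0.0536). Its signal was 11.06, 11.22, 11.45, 11.55, 11.34 and 11.54 over the MMS course, with all 5 later arrays above 0 min. SEM1 was called without the 100 min or the 180 min H2O2 array (limma adjusted p = 0.0259 and 0.0476) and without the 140 min MMS array (0.43, limma adjusted p = 0.0472). It was also the subunit least like the rest: its Pearson correlation with the mean of the others over the 12 arrays was 0.815, and the median of this value over the 33 subunits was 0.991. These arrays share their courses and baseline, so the correlations are descriptions only.

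UMP1 encodes a chaperone that helps the parts of the core join and is then degraded by the finished core. Its log2 signal was 11.08, 11.50, 11.94, 12.17, 12.12 and 12.12 in MMS and 11.20, 11.38, 11.69, 11.45, 11.09 and 10.91 in H2O2, in the order of time. In H2O2 UMP1 was highest at 60 min, like all 33 subunits. In MMS it was highest at 100 min, as were 8 of the 33 subunits, while 20 were highest at 180 min. UMP1 rose by 1.0 ± 0.18 in the late MMS window (limma adjusted p = 0.000598). It also rose in the early one by 0.58 ± 0.19 (limma adjusted p = 0.0444). That early call was lost when any of 7 arrays was left out, with adjusted p between 0.0568 and 0.333. It was also lost with each array centred on its median (0.53, limma adjusted p = 0.0618), with the time point as a block (limma adjusted p = 0.061), with the own 0 min baseline (limma adjusted p = 0.127) and with 30 min alone (0.36, limma adjusted p = 0.623). In early H2O2 its 0.40 ± 0.19 did not pass (limma adjusted p = 0.136).

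BLM10 encodes a cap that can sit on the core in place of the regulatory cap. It was later than the rest under MMS, with a log2 signal of 10.05, 10.18, 10.61, 11.01, 11.28 and 11.42 at 0, 30, 60, 100, 140 and 180 min. In H2O2 it was 9.93, 10.09, 10.45, 10.40, 10.08 and 9.97, still 0.47 above 0 min at 100 min, where the subunits had a median of 0.12. BLM10 rose by 1.24 ± 0.19 in the late MMS window (limma adjusted p = 0.000249), while its early 0.40 ± 0.21 did not pass (limma adjusted p = 0.15). The step between the MMS windows was 0.84 ± 0.19 (limma adjusted p = 0.00743), and it did not pass without the 30 min MMS array (0.62, limma adjusted p = 0.0838).

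From the early to the late MMS window 16 of 33 subunits were called higher, against 27.1% of all genes, with a median step of 0.39 (range 0.15 to 0.62) against 0.06 over all genes. They were 8 of 14 in the core, 5 of 10 in the base and 3 of 9 in the lid. PRE3 had the largest step, 0.62 ± 0.20 (limma adjusted p = 0.0286), and RPT3 gained 0.57 ± 0.17 (limma adjusted p = 0.0213). This count, too, followed single arrays, and the calls over all genes were again not counted in those fits. It was 0 without the 30 min MMS array and 29 without the 60 min MMS array. Leaving out the 140 min or the 180 min MMS array gave 4, and leaving out either 0 min array or the 140 min H2O2 array gave 9.

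At 30 min RPN4 had reached a larger share of its largest change than any subunit under both agents. By the time of the maximum it was earlier only in H2O2, since in MMS its highest array was that of 180 min. In H2O2 its highest array was that of 30 min, and the 33 subunits, UMP1 and BLM10 were highest at 60 min, when RPN4 was back to 0.30 above 0 min. Of all genes, 19% were highest at 30 min of H2O2, and of the 1216 genes that rose 1.5-fold or more 20.9% were, so a maximum at that time was common. By 100 min RPN4 was 0.40 below 0 min, with a change of -0.40, while the subunit median was still above it. In MMS, 85.8% of the largest RPN4 change of the course was present at 30 min. The corresponding share for the subunits had a median of 30.6% (range 14.9% to 40.8%), for UMP1 39.0% and for BLM10 9.52%. Of the 1980 genes that rose 1.5-fold or more at some time of the MMS course, the median share was 25.9%, and 3.03% had a share at or above that of RPN4. By this share the subunits were near the typical rising gene, and RPN4 was among the early ones.

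In H2O2 the subunits had a median of 37.1% of their largest change at 30 min (range -15.1% to 64.2%), where the genes that rose 1.5-fold or more had a median of 63%. The lid stood at 56.3%, the core at 34.8% and the base at 29.6% under H2O2. In MMS the same classes stood at 33%, 25.7% and 30.3%. RPN12 had 64.2% in H2O2 and 40.7% in MMS. These shares come from 1 array per time and carry no test, and under H2O2 they divide by changes of at most 0.69.

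**Figure D3:**
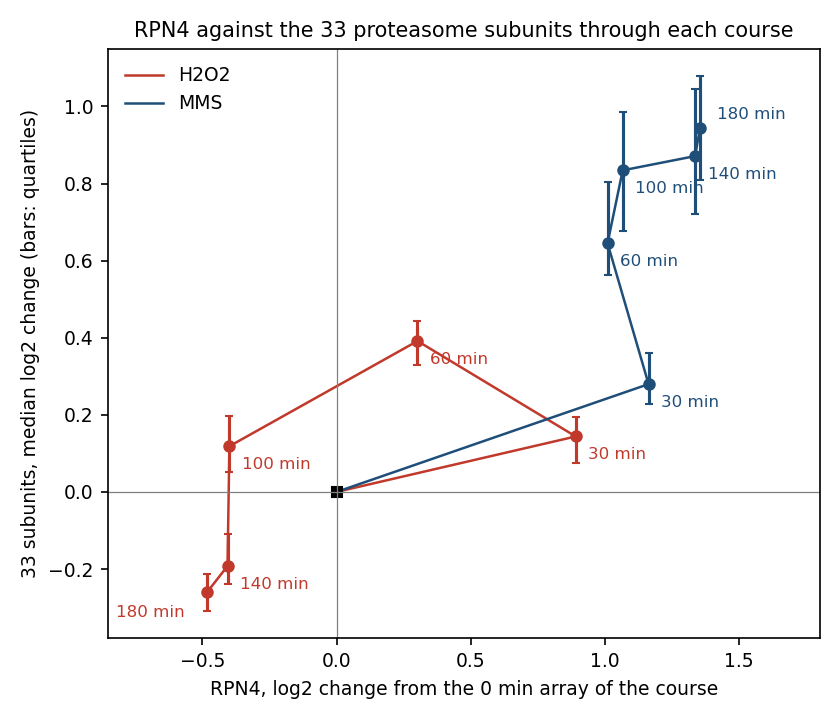
Median log2 change of the 33 subunits (vertical axis, bars show the quartiles over subunits) against the log2 change of RPN4 (horizontal axis), both from the 0 min array of the course, with 1 array per point. Both courses start to the right with RPN4 at 30 min. The H2O2 course then turns back to the lower left, while the MMS course goes upward with RPN4 at or above 1.01.

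Over the MMS course the array of 180 min was the highest for 20 of 33 subunits (26.9% of all genes), that of 140 min for 5 (15.9%) and that of 100 min for 8 (13.9%). RPN4 itself was highest at 180 min, UMP1 at 100 min and BLM10 at 180 min. Over the 12 arrays the Pearson correlation of RPN4 with the subunit mean was 0.856, and it was 0.618 over the 6 H2O2 arrays and 0.818 over the 6 MMS arrays. The median correlation of a single subunit with RPN4 was 0.846, against 0.144 for all other genes. Among all genes ranked by this correlation, the closest subunit, RPN3, stood at 132, and SEM1, the furthest, at 1795.

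The difference between the agents grew with time. The subunits on the MMS array exceeded those on the H2O2 array of the same time by a median of 0.12, 0.26, 0.68, 1.06 and 1.21, in the order of the 5 times after 0 min. From 100 min on all 33 subunits were higher in MMS. Over all genes the median difference was 0.05, 0.05, 0.10, 0.10 and 0.08 at the 5 times. The RPN4 difference was larger than the subunit median at each time, at 0.28, 0.71, 1.47, 1.75 and 1.84.

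In the early windows none of the 33 subunits was called between the agents by limma, where 8.13% of all genes were called. An unadjusted p under 0.05 was found for 1 subunit, beside 1451 of all 5449 genes. The median difference was 0.18 (range -0.03 to 0.44), with RPT3 at the top (0.44 ± 0.19, limma adjusted p = 0.170), and that of all genes was 0.05. Without the 30 min MMS array 2 were called. RPN4 was 0.49 ± 0.18 higher in early MMS, which did not pass (limma adjusted p = 0.113), but passed without the 30 min H2O2 array (0.79, limma adjusted p = 0.0211). It also passed with the time points shared by the courses as a block (0.49, limma adjusted p = 0.0404). Over all genes 313 were called higher and 130 lower in MMS here, and 167 higher and 195 lower once each array was centred on its median. That centring moved the difference of every gene by about -0.105 and the subunit median from 0.18 to 0.08.

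In the late windows 32 of 33 subunits were called higher in MMS than in H2O2 and none lower. Over all genes 39.2% were called higher and 31.3% lower. The median difference was 0.97 (range 0.28 to 1.48), against 0.10 over all genes, and the core, base and lid medians were 0.96, 0.96 and 0.97. RPN4 stood 1.68 ± 0.14 higher in MMS, which is 3.21-fold (limma adjusted p = 3e-05). RPT3 followed at 1.48 ± 0.15 (limma adjusted p = 4.2e-05), then RPN2 and RPT4 at 1.35 each (SE 0.14 and 0.13, limma adjusted p = 3.9e-05 and 3.8e-05) and PRE8 at 1.32 ± 0.17 (limma adjusted p = 0.000106). UMP1 was 0.98 ± 0.16 and BLM10 1.08 ± 0.17 higher (limma adjusted p = 0.000394 and 0.000333). SEM1, at 0.28 ± 0.14, was again the one not called (limma adjusted p = 0.0868), and it was called without the 100 min H2O2 array (0.42, limma adjusted p = 0.0144). When each course was set against its own 0 min array, so that the difference rested on single baselines, 20 of the 33 passed.

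**Figure D4:**
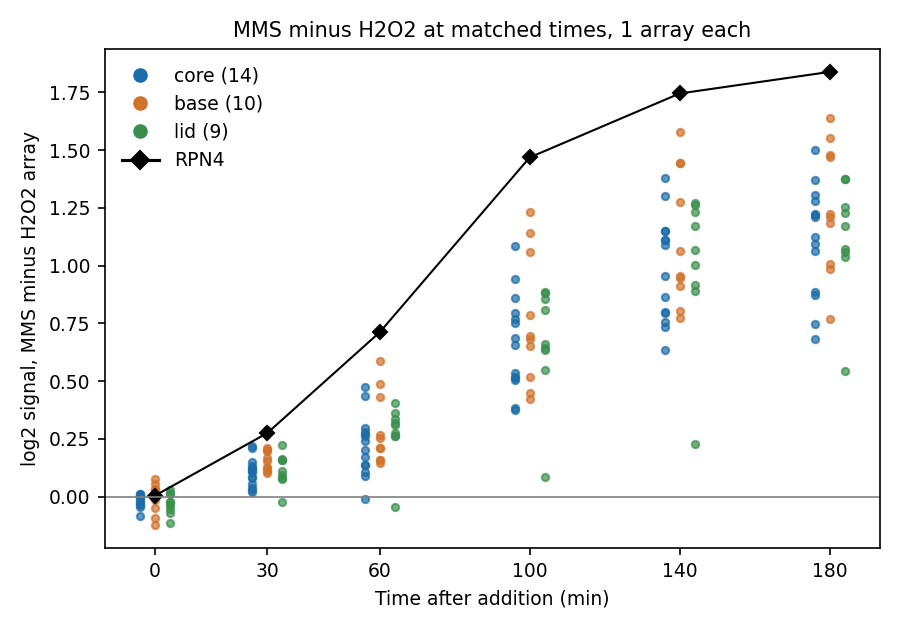
Log2 signal on the MMS array minus that on the H2O2 array of the same time, for the subunits of the core, base and lid (points, side by side at each time) and RPN4 (line), with 1 array per agent and time and no error bars. At 0 min the subunits lie between -0.12 and 0.07, and at 180 min between 0.54 and 1.64, with RPN4 at 1.84.

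Other genes of the pathway moved in the same windows, by larger amounts for several of them. Among 9 assembly chaperones, which build the core and the base, 7 were called higher and 1 lower in the late MMS window (median 1.14). The shares over all genes were 40.3% and 34.6%. In early H2O2 2 were called higher and 1 lower, close to the 14.7% and 19% of all genes. ADD66 and PBA1, whose products pair early in core assembly, rose in late MMS by 1.81 ± 0.19 and 1.44 ± 0.23 (limma adjusted p = 5.5e-05 and 0.000324). TMA17, a base assembly chaperone, rose by 1.58 ± 0.30 in early H2O2 (limma adjusted p = 0.00566) and by 1.45 ± 0.28 in late MMS (limma adjusted p = 0.000908). Its H2O2 signal was 8.68, 9.96, 10.49, 9.83, 9.96 and 9.72 in order of time, so it remained above 0 min to the end of that course, unlike the subunits. POC4, which pairs with IRC25 in assembling the alpha ring, fell by 1.47 (SE 0.14, limma adjusted p = 4.4e-05) in late MMS. IRC25 itself rose by 0.38 ± 0.10 there (limma adjusted p = 0.00728).

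Of 6 proteins that bind the finished proteasome, 5 were called higher and 1 lower in late MMS (median 1.32), against 40.3% and 34.6% of all genes, and 1 higher in early H2O2, against 14.7%. HUL5, a ubiquitin ligase that extends chains on bound substrates, rose by 2.60 ± 0.27 in late MMS (limma adjusted p = 5.1e-05) and 0.87 ± 0.29 in early H2O2 (limma adjusted p = 0.0447). ECM29, which tethers core and cap, rose by 2.02 ± 0.36 in late MMS, and UBP6, a deubiquitinase of the cap, by 1.49 ± 0.20 (limma adjusted p = 0.000587 and 0.00012). CIC1, which is also a ribosome assembly factor, fell by 3.31 (SE 0.54, limma adjusted p = 0.00038).

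Among 9 shuttle factors and members of the Cdc48 complex, which extract ubiquitinated proteins and bring them to the proteasome, 8 were called higher and none lower in late MMS (median 1.14), where 40.3% of all genes were called higher. In early H2O2 2 were called higher, where 14.7% of all genes were. DDI1, a shuttle factor with a protease fold, had a signal of 8.39, 9.86, 11.06, 11.44, 11.84 and 12 over the MMS course. It rose by 3.33 ± 0.35 in late MMS and by 1.42 ± 0.38 in early H2O2 (limma adjusted p = 5.4e-05 and 0.0194). NPL4 and UFD1, the pair of adaptors of Cdc48, rose by 2.33 ± 0.28 and 2.19 ± 0.25 in late MMS (limma adjusted p = 8e-05 and 6.9e-05), and CDC48 by 0.54 ± 0.12 (limma adjusted p = 0.00228).

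Of 8 known regulators of RPN4, 5 were called higher and 1 lower in late MMS (median 1.03), beside 40.3% and 34.6% of all genes. In early H2O2 1 was called higher, near the 14.7% of all genes. YAP1, the activator of the oxidative stress response, had a signal of 9.92, 11.25, 11.00, 10.12, 9.58 and 9.63 in H2O2, highest at 30 min like RPN4. It rose by 1.16 ± 0.22 in early H2O2 and 1.73 ± 0.20 in late MMS (limma adjusted p = 0.00548 and 7.1e-05). HSF1, the heat shock activator, and PDR1, a drug resistance activator, rose in late MMS by 2.28 ± 0.22 and 1.72 ± 0.19 (limma adjusted p = 4.7e-05 and 5.8e-05), while PDR3, the partner of PDR1, was at 0.11 ± 0.12. On the side that removes Rpn4 protein, the ubiquitin ligase UBR2 was at -0.24 ± 0.25 and did not pass. Its partner MUB1 rose by 0.67 ± 0.23 (limma adjusted p = 0.0222). MUB1 did not pass without the 180 min MMS array (limma adjusted p = 0.0658), nor without either 0 min array. UBR1, another ubiquitin ligase of the list, rose by 1.39 ± 0.17 (limma adjusted p = 9.4e-05). The ubiquitin conjugating enzyme RAD6 fell by 0.93 (SE 0.12, limma adjusted p = 9.5e-05).

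The 7 genes of these lists called in early H2O2 were POC4, NAS2, TMA17, HUL5, DDI1, UFD1 and YAP1. TMA17 and YAP1 stayed called whichever array was left out, but not with an early window of 30 min alone (limma adjusted p = 0.0524 and 0.127), and YAP1 not with one of 30 to 100 min (0.83, limma adjusted p = 0.0858). The other 5 lost the call without either 0 min array, with adjusted p between 0.0803 and 0.151.

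**Figure D5:**
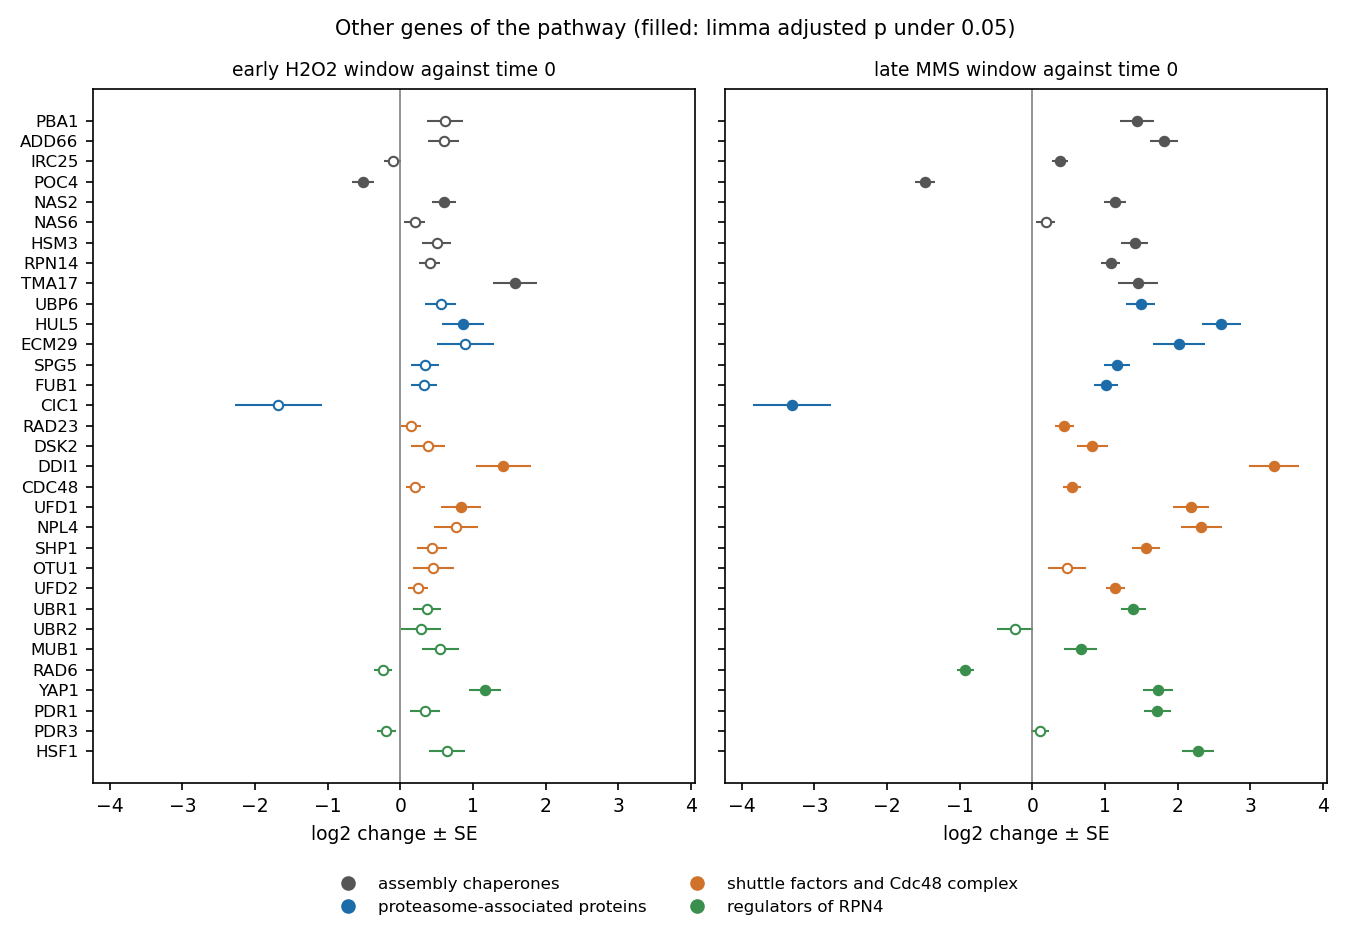
Log2 change from time 0 with the limma SE for the 32 other genes of the pathway, in the early H2O2 window (left) and the late MMS window (right). Filled points passed an adjusted p of 0.05. In late MMS DDI1 stands highest at 3.33 and CIC1 lowest at -3.31.

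The genes outside the 36 with the profile most like the subunit mean over the 12 arrays were UBP6 (Pearson r = 0.995), UBX4 (0.993), LPL1 (0.991), MEF2, UFD1 and GOS1 (0.990 each), and ECM29 and CAD1 (0.989 each). Those most like RPN4 were BTN2 (0.984), BSC5 (0.983), NBP35 (0.972), CIA2 and UBA4 (0.971 each), MPA43 (0.966), and RIB1 and ISU2 (0.964 each). The lists shared no gene. UBX4 rose by 1.73 ± 0.23 in late MMS (limma adjusted p = 0.000119) and BTN2 by 2.60 ± 0.32 (limma adjusted p = 8.34e-05). These correlations rest on 12 arrays of 2 courses with a common baseline and are given without a test.

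The subunits were among the brighter genes of the arrays, with log2 signals at time 0 from 10.95 to 12.31, where the brightest gene on any array was at 13.7. The Pearson correlation of that time 0 signal with the late MMS change over the 33 subunits was -0.369 (Spearman rho -0.377). The part of probe signal in the size of the changes was not tested. RNA came from whole cultures, so more transcript per cell and a larger share of responding cells cannot be told apart.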

How the data were processed

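Total RNA from 12 yeast samples was labelled as biotin cRNA from poly(T)-primed cDNA and hybridised to 1-colour Affymetrix arrays, per the labels. RMA turned the scans into the log2 signal of each probe set in the deposited table, per the submitters' processing notes. The RMA version, and whether all arrays were normalized together, are not given in the sources used here. Array medians of the deposited log2 values lay between 9.01 and 9.15, and nothing was rescaled. Of 5900 probe sets 5498 were listed with 1 gene. The brightest was kept for 47 genes with several, 12 symbols were updated, and 5449 genes resulted. RMA signals are relative to the other genes of an array, no depth exists for them, and the number of arrays (2 or 3 per window) limits the precision.

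With limma 3.58.1 (R 4.3.3), 1 linear model of the 5 groups was fitted over the 12 arrays, leaving 7 residual and 2.71 prior degrees of freedom (median residual SD 0.169). Of its 8 contrasts, 4 compared a window with time 0, 2 the late with the early window of a course, and 2 the agents within a window. The fit was run on simulated data with independent noise and no trend within a window. That run cannot show how p-values behave when time points stand in for replicates. Changes by time are differences from the 0 min array of the course, from 1 array each, with no test. The alternatives were the own 0 min array as baseline, median centring, quantile normalization, leaving out the dimmest 25% of genes, robust trended moderation, the mean of a gene's probe sets, windows cut at 30 or at 100 min, the time point as a random block, and leaving out each array.

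The genes and the 4 pathway lists were chosen with earlier results of these data known. Named were RPN4, UMP1, BLM10, the extremes of each subunit class in early H2O2 and late MMS, members called in a contrast, called members of the pathway lists, and the 8 genes most correlated with the subunit mean and with RPN4. Named outside this rule, after their values were seen, were the late MMS values of IRC25, CDC48, PDR3 and UBR2. No promoter or protein sequence was used here, so the element bound by Rpn4 was not searched for.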

Additional observations from a re-analysis of the deposited data

Results flagged for a closer look

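Between the late windows of the courses, 32 of the 33 subunits passed limma's adjusted p of 0.05 and lay higher in MMS. Over all genes 39.2% were called higher and 31.3% lower in this comparison. Agent and array batch cannot be told apart here, and time points stood in for replicates. RPN4 differed by 1.68 on the log2 scale, UMP1 by 0.98 and BLM10 by 1.08. In the core the difference was 1.32 for PRE8, 0.67 for PRE6, 0.67 for PUP2, 1.09 for PRE3 and 0.61 for PUP3. In the base it was 1.18 for RPT2, 0.90 for RPT1, 1.48 for RPT3, 0.77 for RPT5, 1.35 for RPN2 and 0.75 for RPN1. In the lid it was 1.01 for RPN12, 0.87 for RPN7 and 1.15 for RPN6. All 3 late arrays of a course enter each value. No group held enough arrays for a test of single outlying samples.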

How the results depend on the processing

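Subunit counts changed with the window limits and the baseline more than with the scaling. The calls over all genes were counted for the main fit and for median centring only. In early MMS, where 14 were called, the count was 0 with the own 0 min array as baseline, 0 with an early window of 30 min alone, 29 with one of 30 to 100 min and 8 with the time point as a block. Between the MMS windows, where 16 were called, it was 9, 2 and 0 under the first 3 of these. For MMS against H2O2 it was 3 in the early windows with 30 to 100 min, and 20 in the late windows with the own baseline. RPN4 in early H2O2 was 0.60 with the own baseline, 0.89 with 30 min alone and 0.26 with 30 to 100 min, all short of the threshold (limma adjusted p = 0.112, 0.104 and 0.525). RPN4 was also short of it with 30 min alone in early MMS (1.16, limma adjusted p = 0.115) and, between the H2O2 windows, with 30 min alone (-1.14, limma adjusted p = 0.0906) and 30 to 100 min (-0.71, limma adjusted p = 0.278). With the time point as a block, RPN4 passed for MMS against H2O2 early (0.49, limma adjusted p = 0.0404). The windows with fewer arrays and single baselines leave fewer arrays per group, and otherwise the cause was not tested. PUP3 and UBR2, not called in early H2O2, turned to -0.020 and -0.13 with 30 min alone; leaving out each array, PUP3 ranged from -0.020 to 0.26 and UBR2 from -0.13 to 0.70.

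Leaving out each array gave subunit counts of 0 to 1 in early H2O2, 0 to 0 in late H2O2, 0 to 29 in early MMS, 32 to 33 in late MMS, 0 to 12 between the H2O2 windows, 0 to 29 between the MMS windows, 0 to 2 for MMS against H2O2 early and 32 to 33 late. RPN4 ranged from 0.30 to 0.89, from -0.45 to -0.40, from 1.01 to 1.16, from 1.2 to 1.35, from -1.32 to -0.73, from 0.09 to 0.26, from 0.20 to 0.79 and from 1.63 to 1.78 in the same order. A window reduced to 1 array was assumed to vary like the others. Outside the leave-outs, direction and side of the threshold were kept by 65 of 72 RPN4 values. They were also kept by 809 of 873 values of the other named members and 543 of 572 of the pathway genes. A subunit count has no direction or side of the threshold. Of the 72 counts outside the leave-outs, 9 moved, and 63 were equal or close to the count of the main fit. Centring moved the median of all genes by -0.105 for MMS against H2O2 early, and by under 0.1 in the other comparisons, as did quantile normalization in all 8. The labels give no replicate numbers. The time points that both courses share were used as a block, with a correlation of 0.346 within a time point.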
